A study of Mus musculus with 79 samples.

Results

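The 10 genes described here encode protein parts of the perineuronal net and of the diffuse matrix around brain cells, or enzymes that make or cut matrix. They were chosen by symbol (Acan, Bcan, Ncan, Vcan, Hapln1, Hapln4, Tnr, Ptprz1, Has3 and Mmp16) and matched to the gene identifiers of the count table, and 10 of the 55471 genes in that table are members. All 10 had enough counts to be tested in both regions. The samples were 79 bulk RNA libraries from 40 wild-type male CD-1 mice, 39 from the medial prefrontal cortex (mPFC) and 40 from the ventral hippocampus (vHipp). CTRL mice stayed in groups of 4, and CSDS mice went through 21 days of a modified chronic social defeat. On day 4 of life in an enriched arena shared by 4 mice, every mouse received a single injection of saline or of 10 mg/kg ketamine, and tissue was collected 7 days after it. The 4 groups (CTRL saline, CSDS saline, CTRL ketamine and CSDS ketamine) held 10 libraries per region, apart from 9 mPFC libraries of CSDS ketamine mice. The mPFC of mouse 5 was not analysed here. The mice were non-siblings with a stated age of 9 to 10 weeks, which was not tied to the time of tissue collection. Each library came from 1 mm punches of 200 µm slices, so it holds RNA of all cell types in the punch. CSDS mice carry the numbers 1 to 20 and CTRL mice the numbers 21 to 40, so any run of mouse numbers lies within a stress group. The arena and the social rank of each mouse are not in the labels, so each group pools mice without regard to rank.

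Perineuronal nets are lattices that wrap the soma and proximal dendrites of certain neurons, most of all fast-spiking parvalbumin interneurons. Chains of hyaluronan made at the cell membrane form the backbone, the lecticans (chondroitin sulfate proteoglycans) bind to it, link proteins lock that bond, and tenascin-R ties lecticans together. Nets mature late in postnatal life, limit plasticity, and are cut by metalloproteases. Several of the same proteins, mainly brevican and neurocan, also lie in the loose matrix between cells, and astrocytes, oligodendrocyte precursors and neurons all contribute to them.

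Total counts per library ranged from 11726129 to 41767119, with a median of 19638100, and no pair of libraries had identical counts. Levels are given as CPM, which are counts scaled to library size with TMM factors. Of the markers fixed for the region labels, 4 of 5 hippocampal ones were higher in the vHipp and 4 of 5 cortical ones were higher in the mPFC, and none was at 0 in any library. The mPFC libraries also had higher levels of 5 of 5 meningeal and 5 of 6 striatal markers (median LFCs, mPFC minus vHipp, of 1.17 and 0.38). The median LFC was -1.32 for choroid plexus, -0.28 for excitatory neuron, -0.21 for parvalbumin interneuron, -0.19 for inhibitory neuron, -0.19 for astrocyte, -0.10 for oligodendrocyte, -0.01 for oligodendrocyte precursor, 0.05 for microglia and 0.20 for endothelial markers. Libraries of 2 CSDS ketamine mice stood apart from their groups over 15184 genes. The library of mouse 1 had a median absolute log2 distance to its group of 0.200 in the mPFC, against a median of 0.107 over libraries. In the vHipp, mouse 11 had a distance of 0.262, against a median of 0.114, and mouse 1 had 0.191. The vHipp library of mouse 11 had the highest summed levels of astrocyte, oligodendrocyte precursor, microglia, endothelial, meningeal, inhibitory and excitatory neuron markers of all 40. For the members, values without these libraries are given beside several of the results.

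Upstream sequences are shown for Bcan, Ncan and Vcan, since these lecticans moved together across vHipp libraries. Each comes from the 250 bases of RefSeq sequence (GRCm38.p6) before the RefSeq start of the gene and is printed 5′ to 3′ on the gene's strand. All 250 bases are shown for Bcan and Vcan and the first 221 for Ncan, where the 29 bases next to the start lie within the gene as counted and are left out. Bcan lies on the minus strand at chr3:87987531-88000230 with its window at chr3:88000357-88000606, which lies upstream of the counted gene with a gap, as the RefSeq start differs from that of the count annotation. Ncan is at chr8:70093085-70120873 (minus strand, window chr8:70120874-70121094), and Vcan is at chr13:89655312-89742509 (minus strand, window chr13:89742513-89742762). Capitals mark CCAAT boxes (CCAAT) and GC boxes (GGGCGG) on either strand.
Bcan: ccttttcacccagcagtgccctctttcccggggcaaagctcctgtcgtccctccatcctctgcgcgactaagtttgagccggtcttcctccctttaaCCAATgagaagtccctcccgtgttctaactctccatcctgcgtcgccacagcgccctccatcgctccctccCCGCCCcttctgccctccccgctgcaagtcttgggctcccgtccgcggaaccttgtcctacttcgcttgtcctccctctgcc
Ncan: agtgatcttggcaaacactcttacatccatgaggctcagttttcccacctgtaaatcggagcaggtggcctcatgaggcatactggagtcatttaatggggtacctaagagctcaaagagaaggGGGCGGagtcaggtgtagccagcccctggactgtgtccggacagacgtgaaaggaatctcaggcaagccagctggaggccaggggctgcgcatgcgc
Vcan: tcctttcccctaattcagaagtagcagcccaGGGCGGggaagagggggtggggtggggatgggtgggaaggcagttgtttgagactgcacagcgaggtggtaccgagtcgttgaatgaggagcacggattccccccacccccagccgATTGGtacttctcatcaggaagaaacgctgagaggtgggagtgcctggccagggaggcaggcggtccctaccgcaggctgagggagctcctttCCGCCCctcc
Bcan held 1 CCAAT box and 1 GC box. Vcan held 1 CCAAT box and 2 GC boxes, and Ncan held 1 GC box. A CCAAT box occurred in 33.8% of the 32851 RefSeq windows of 250 bases, and a GC box in 32.7%, so these matches describe the windows only. A TATA box (TATAAA), found in 12.4% of windows, was matched in none of the printed stretches. In Ncan it occurred on the opposite strand 11 to 6 bases before the start, within the 29 bases left out. Windows existed for 7 of the 10 genes. Acan (1 CCAAT box and 3 GC boxes) and Ptprz1 (2 GC boxes) had matches in GC-rich windows (74.4% and 71.6% GC, against a median of 52.4% over windows), and Tnr (46.8%) had none.

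Per length, brevican led in both regions. To set genes side by side, CPM were divided by the length of all annotated exons of the gene, which understates genes with many short isoforms. In the mPFC the order of medians was Bcan (57.0 CPM per kb), Ncan (38.2), Hapln4 (32.8), Tnr (21.7), Ptprz1 (15.1), Mmp16 (3.89), Hapln1 (3.46), Vcan (1.54), Acan (0.638) and Has3 (0.192). Neighbors in this order overlapped in range, apart from Ptprz1 above Mmp16 and Hapln1 above Vcan. In the vHipp the order was Bcan (64.4 CPM per kb), Hapln4 (56.8), Tnr (28.3), Ncan (28.0), Ptprz1 (17.7), Hapln1 (4.87), Mmp16 (3.77), Vcan (1.46), Acan (0.622) and Has3 (0.314). There, neighbors overlapped apart from Vcan above Acan. Ncan and Hapln4 thus changed places: the ratio of Ncan to Hapln4 per kb had a median of 1.14 in the mPFC (range 0.763 to 1.64) and of 0.482 in the vHipp (0.270 to 1.75).

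**Figure D1:**
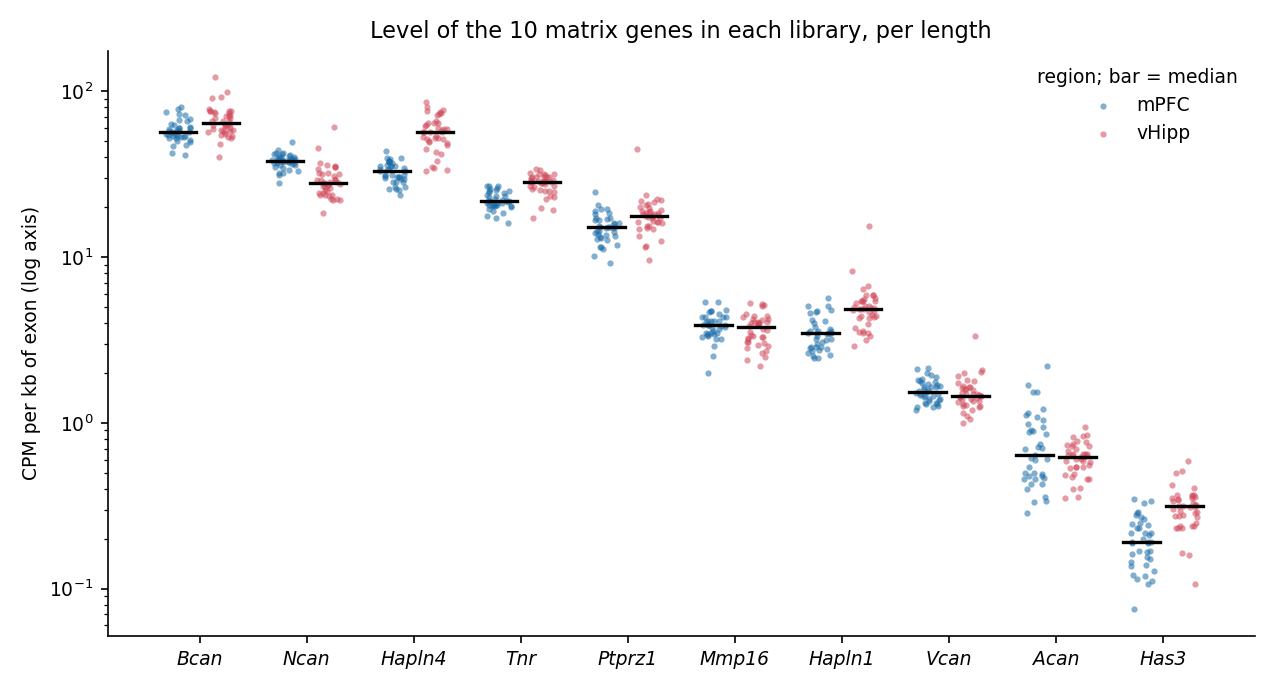
Level of each gene in each of the 79 libraries, in CPM per kb of exon on a log axis (blue, mPFC; red, vHipp; bars are medians). Bcan is the highest in both regions, with medians of 57.0 and 64.4, and Has3 the lowest, with 0.192 and 0.314.

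Among the 4 lecticans, Bcan (brevican, a short lectican made largely by astrocytes) contributed a median of 58.9% of the summed CPM per kb in the mPFC and 67.6% in the vHipp. Ncan (neurocan, abundant in the juvenile matrix) contributed 39.1% and 30.2%. Vcan (versican, in the adult brain mostly a product of the oligodendrocyte lineage) made up 1.58% in each region. Acan (aggrecan, the lectican most typical of mature nets) made up 0.701% and 0.642%. These are shares of transcripts in whole punches.

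Acan was also the gene that varied most among mPFC libraries. Its coefficient of variation was 54.6% in the mPFC, against a median of 11.8% over 15184 genes, and 22.2% in the vHipp, where the median was 13.8%. In the mPFC its level ran from 2.14 to 16.4 CPM with a median of 4.77, and in the vHipp from 2.64 to 7.04 CPM with a median of 4.65. The medians were thus close, while 11 of 39 mPFC libraries lay above every vHipp library and 3 lay below all of them. At these levels an Acan value rested on 35 to 390 counts. The least variable was Ncan in the mPFC, with 10.3%.

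The regions differed in 8 of the 10 genes. The test was edgeR's quasi-likelihood F test over all 79 libraries with Benjamini-Hochberg adjustment over 31534 genes, averaged over the 4 groups, and log2 fold changes (LFC) are mPFC minus vHipp. Ncan and Acan were higher in the mPFC, and Hapln4, Has3, Hapln1, Tnr, Ptprz1 and Bcan were higher in the vHipp. Of all genes tested, 48.9% passed, 24.5% with a higher level in the mPFC and 24.4% with a lower one, and 8 of 10 members is to be read against that share. With edgeR's filterByExpr, a stricter filter on low counts, 65.8% of 18973 genes passed, and 8 of 10 members did. In these bulk samples, fewer cells of a type and less RNA per cell cannot be told apart. Within a region each library came from a different mouse, but 39 mice gave both regions and this fit did not pair them. With the mouse as a block, 7 of 10 members passed, against 49.0% of 31497 genes.

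Ncan had the clearest excess in the mPFC. It ranged from 202 to 357 CPM there, with a median of 275, and from 132.6 to 440 CPM in the vHipp, with a median of 202. Of the 39 mPFC libraries, 38 lay above the vHipp median, 20 of 40 vHipp libraries lay below every mPFC library, and 1, of mouse 11, lay above all of them. The LFC was 0.39 (SE 0.0532, adjusted p = 1.6e-09), or 1.31-fold. Within mice, Ncan was higher in the mPFC in 37 of 39. Without the vHipp library of mouse 11 the LFC was 0.42.

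Acan passed with an LFC of 0.33 (SE 0.125, adjusted p = 0.0231), but this result did not hold in every setting. Over 17 alternative settings the LFC lay between 0.22 and 0.43, with an adjusted p under 0.05 in 11. Within mice, Acan was higher in the mPFC in 20 of 39 and higher in the vHipp in 19. With the mouse as a block the LFC was 0.22 (adjusted p = 0.144, edgeR). It also no longer passed in 5 of the 10 fits that left out a run of 4 mouse numbers.

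The link proteins were higher in the vHipp. Hapln4 (Bral2, the link protein that partners brevican around neurons; chr8:70083457-70090862, plus strand) ranged from 92.99 to 171 CPM in the mPFC, with a median of 128.7, and from 130 to 338 CPM in the vHipp, with a median of 223. Every mPFC library lay below the vHipp median, and 33 of 40 vHipp libraries lay above every mPFC library. The LFC was -0.80 (SE 0.0646, adjusted p = 4.59e-19). Hapln1 (cartilage link protein, which stabilizes the bond of aggrecan to hyaluronan; chr13:89539796-89611652, plus strand) ranged from 14.4 to 33.4 CPM in the mPFC and from 17.2 to 90.8 CPM in the vHipp, with medians of 20.4 and 28.8. Of the mPFC libraries, 12 lay below every vHipp library, and the ranges overlapped for the rest. Its LFC was -0.52 (SE 0.0846, adjusted p = 1.24e-07), and -0.45 without mouse 11 in the vHipp.

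Each link protein gene lies beside a lectican gene. Hapln4 and Ncan are 2222 bases apart on chromosome 8, and Hapln1 and Vcan are 43659 bases apart on chromosome 13, both pairs on opposite strands. The neighbors Hapln4 and Ncan differed between regions in opposite directions, each past the test. Hapln1 was higher in the vHipp, while Vcan had an LFC of 0.04 (SE 0.0598, adjusted p = 0.662).

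Tnr (tenascin-R, the trimeric cross-linker of lecticans; chr1:159523769-159931729, plus strand) was higher in the vHipp. It ranged from 207 to 345 CPM in the mPFC, with a median of 279, and from 221 to 433 CPM in the vHipp, with a median of 364. All mPFC libraries lay below the vHipp median, and 27 of 40 vHipp libraries lay above every mPFC library. The LFC was -0.33 (SE 0.0436, adjusted p = 2.58e-10), and Tnr was higher in the vHipp in 36 of 39 mice.

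Ptprz1 encodes a receptor phosphatase whose secreted form, phosphacan, is itself a chondroitin sulfate proteoglycan that binds tenascin-R. It ranged from 131.8 to 352 CPM in the mPFC (median 215) and from 135.8 to 641 CPM in the vHipp (median 253). The ranges overlapped almost fully, and 32 of 39 mPFC libraries lay below the vHipp median. The LFC was -0.25 (SE 0.0722, adjusted p = 0.00227), and -0.20 (adjusted p = 0.00536) without mouse 11 in the vHipp. Bcan had a similar difference, with 168 to 328 CPM in the mPFC (median 232) and 163 to 492 CPM in the vHipp (median 262). Its LFC was -0.20 (SE 0.0553, adjusted p = 0.00136), with a higher level in the vHipp in 26 of 39 mice.

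Has3, one of the 3 hyaluronan synthases, was the lowest of the 10 genes and had a difference second only to Hapln4. It ranged from 0.481 to 2.22 CPM in the mPFC, with a median of 1.23, and from 0.685 to 3.77 CPM in the vHipp, with a median of 2.00. The groups overlapped, with 36 of 39 mPFC libraries below the vHipp median and 12 vHipp libraries above every mPFC library. The LFC was -0.66 (SE 0.104, adjusted p = 5.7e-08). Mmp16 (MT3-MMP, a membrane-bound metalloprotease; chr4:17852893-18119145, plus strand) did not differ past the test. Its levels were 17.4 to 46.6 CPM in the mPFC and 19.1 to 45.5 CPM in the vHipp, with an LFC of 0.06 (SE 0.0599, adjusted p = 0.408).

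**Figure D2:**
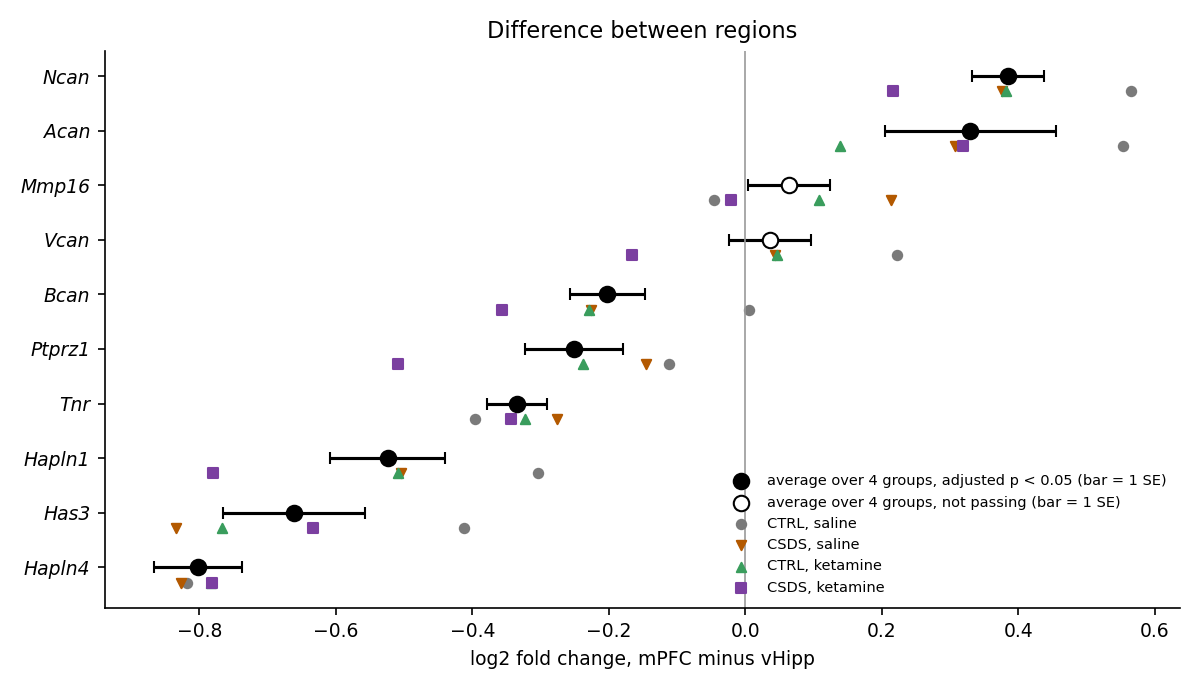
Log2 fold change of each gene, mPFC minus vHipp (large points, average over the 4 groups with 1 SE; filled where adjusted p is under 0.05; small symbols, each group alone). Hapln4 lies lowest at -0.80 and Ncan highest at 0.39, and for Bcan the CTRL saline group lies at 0.01, right of the other 3.

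Read group by group, Hapln4 differed by a similar amount in all 4, with LFCs from -0.83 in CSDS saline to -0.78 in CTRL ketamine and in CSDS ketamine. The Bcan difference was 0.01 in CTRL saline and -0.36 (SE 0.113) in CSDS ketamine, and that of Ncan was 0.57 in CTRL saline and 0.22 (SE 0.108) in CSDS ketamine. Without the vHipp library of mouse 11 the CSDS ketamine values were -0.26 for Bcan (SE 0.109) and 0.36 for Ncan (SE 0.0961), and -0.30 and 0.34 without both libraries of mouse 1 as well. The group values of a gene were not tested against each other in this form.

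Stress was compared within each region, as CSDS minus CTRL averaged over treatments (edgeR, 4 groups in 1 fit). Of 28993 genes tested in the mPFC and 28991 in the vHipp, none (0% each) passed an adjusted p of 0.05. DESeq2 called 14 genes in the vHipp, and none was a member. Unadjusted p-values under 0.05 were found for 3.52% of mPFC genes and 9.71% of vHipp genes. No member was among them in the mPFC, and 5 of 10 members were in the vHipp. These 5 were Bcan, Ncan, Vcan and Hapln1 with positive LFCs, against 5.31% of all genes in that direction, and Mmp16 with a negative one, against 4.4% of all genes. Their adjusted p-values lay between 0.375 and 0.468, so none of them passed the test. The median LFC of the 10 genes in the vHipp was 0.13, and that of all genes was -0.0025.

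Bcan had the smallest p of the 10 genes in the vHipp. Its levels in CTRL mice were 163 to 315 CPM, with a median of 251, and those in CSDS mice were 216 to 492 CPM, with a median of 289. Of 20 CSDS libraries, 13 lay above the CTRL median and 4 above every CTRL library, and the groups overlapped. The LFC was 0.23 (SE 0.0819, p = 0.00792). Without the vHipp library of mouse 11 it was 0.19 (p = 0.0206, edgeR), and Bcan kept an unadjusted p under 0.05 in all 18 settings tried.

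For Ncan, CTRL mice had 132.6 to 253 CPM (median 196) and CSDS mice had 161 to 440 CPM (median 203). The medians were close, and the 4 CSDS libraries above every CTRL library were all of ketamine-treated mice. The LFC was 0.21 (SE 0.0890, p = 0.0251), and 0.14 (p = 0.0736) without mouse 11. Vcan had 14.5 to 27.9 CPM in CTRL mice (median 20.6) and 15.4 to 48.5 CPM in CSDS mice (median 22.6). Here 14 of 20 CSDS libraries lay above the CTRL median. Its LFC was 0.21 (SE 0.0926, p = 0.0260), and 0.14 (p = 0.0763) without mouse 11.

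Hapln1 had 17.2 to 48.8 CPM in CTRL mice (median 27.0) and 18.6 to 90.8 CPM in CSDS mice (median 30.7). A single CSDS library, that of mouse 11, lay above the highest CTRL library, and 15 of 20 lay above the CTRL median. The LFC was 0.27 (SE 0.127, p = 0.0358), and 0.14 (p = 0.141) without mouse 11. Mmp16 ran the other way, with 23.0 to 45.5 CPM in CTRL mice (median 34.8) and 19.1 to 39.3 CPM in CSDS mice (median 28.5). Of the CSDS libraries, 15 lay below the CTRL median. Its LFC was -0.20 (SE 0.0883, p = 0.0283), and -0.22 (p = 0.0154) without mouse 11.

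Without the vHipp library of mouse 11, 2 members stayed at an unadjusted p under 0.05 (Bcan and Mmp16), against 8.53% of all genes in that fit, and 4 did without those of mice 1 and 11, against 8.29%. With runs of 4 consecutive mice modeled as random in limma-voom, 2 members did, against 6.09% of all genes. The other 5 members had LFCs between -0.06 (Tnr) and 0.14 (Ptprz1), with unadjusted p-values of at least 0.215.

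Astrocyte, microglia and endothelial markers moved with these genes in the vHipp stress comparison. At an unadjusted p under 0.05, 4 of 6 astrocyte markers, 5 of 5 microglia markers, 4 of 5 endothelial markers and 1 of 5 oligodendrocyte precursor markers had positive LFCs, and none passed the adjusted test. So did 2 of 5 choroid plexus, 2 of 6 striatal, 1 of 4 excitatory neuron and 1 of 4 parvalbumin interneuron markers. Of the 5 cortical and the 5 hippocampal markers, 1 each had a positive and 1 each a negative LFC at that threshold. Their median LFCs were 0.09 and -0.13. Of the 6 oligodendrocyte markers 0 had an unadjusted p under 0.05, with a median LFC of -0.03. Without mouse 11, 2 of 6 astrocyte, 4 of 5 microglia, 2 of 5 endothelial and 1 of 5 oligodendrocyte precursor markers had positive LFCs at that threshold. The summed astrocyte markers were 3504 to 5633 CPM in CTRL mice (median 4444) and 3435 to 11848 CPM in CSDS mice (median 4877). Microglia markers were 161 to 279 CPM (median 235) and 208 to 623 CPM (median 246). Endothelial markers were 102.97 to 159 CPM (median 131.5) and 108.003 to 314 CPM (median 140.8), and oligodendrocyte precursor markers were 108.3 to 183 CPM (median 128.07) and 109.8 to 260 CPM (median 143.2). No marker of these lists was at 0 in every library, and each highest value was that of mouse 11. The part of these cell types in the differences was not tested. Parvalbumin interneuron markers, which mark the main net-bearing cells, had similar medians of 323 and 326 CPM in CTRL and CSDS mice.

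**Figure D3:**
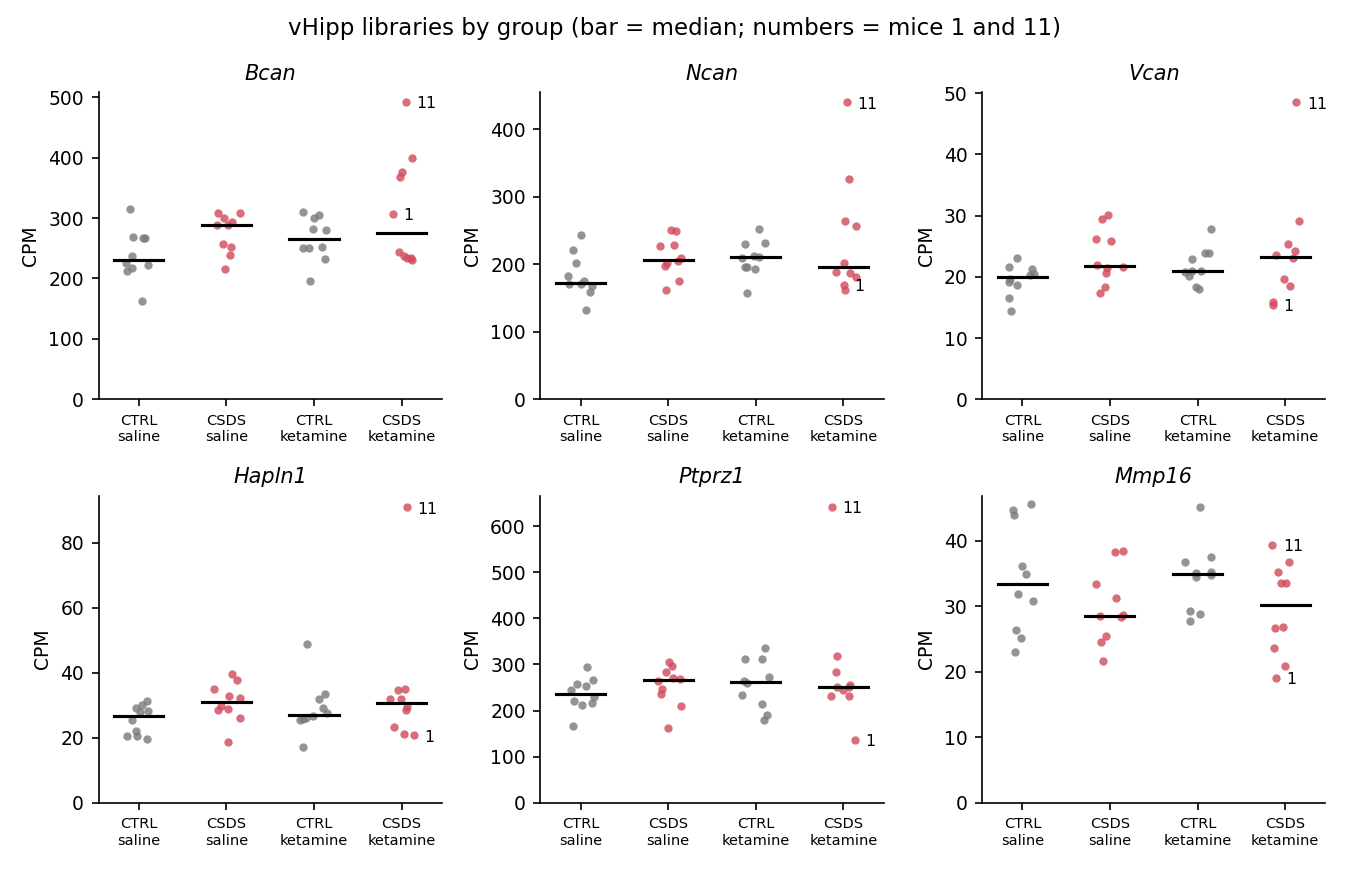
CPM of 6 genes in each vHipp library, by group (gray, CTRL; red, CSDS; bars are medians; numbers label mice 1 and 11). Mouse 11 is the highest CSDS ketamine library for all 6 genes, at 492 CPM for Bcan, and the 4 groups overlap in every panel.

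The stress difference itself did not differ between regions past the test. For the mPFC stress difference less the vHipp one, no gene passed the adjusted test in edgeR (0%), 6.86% of genes had an unadjusted p under 0.05, and no member did. The smallest member p was 0.0999, for Ncan, with an LFC of -0.18 (SE 0.106). In the mPFC the stress LFC of the 10 genes lay between -0.14 (Mmp16, p = 0.0551) and 0.04 (Bcan), so the values near 0 there and those of the vHipp are given side by side only.

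With saline and ketamine mice taken apart, the vHipp values of Bcan, Ncan, Vcan and Hapln1 in ketamine mice were smaller without mouse 11. In saline mice 1 member had an unadjusted p under 0.05, against 5.57% of genes, and this was Vcan with an LFC of 0.27 (SE 0.131, p = 0.0482). In ketamine mice it was Bcan, with an LFC of 0.24 (SE 0.116, p = 0.0439) against 5.42% of genes. Without mouse 11, a ketamine mouse, the values in ketamine mice were 0.15 for Bcan (p = 0.175), 0.06 for Ncan, 0.00426 for Vcan and -0.02 for Hapln1, and Mmp16 had -0.26 (p = 0.0436). In that fit the values in saline mice were 0.22 for Bcan (p = 0.0487), 0.22 for Ncan (p = 0.0424), 0.27 for Vcan (p = 0.0141) and 0.30 for Hapln1 (p = 0.0282), all unadjusted, and 6.35% of all genes had an unadjusted p under 0.05. These are edgeR values from a setting chosen after the data were seen. Over 19 settings the Mmp16 value in ketamine mice lay between -0.31 and -0.16, with an unadjusted p under 0.05 in 2. No member and no gene passed the adjusted test in saline or in ketamine mice (0% each). Some markers also had an unadjusted p under 0.05 in these comparisons over all libraries. In saline mice 4 of 5 choroid plexus, 2 of 5 microglia, 2 of 5 endothelial and 2 of 5 hippocampal ones had positive LFCs. So did 2 of 6 striatal and 1 of 4 excitatory neuron ones, while 1 of 5 cortical and 1 of 6 striatal had negative LFCs. In ketamine mice 5 of 5 microglia, 2 of 6 astrocyte, 2 of 5 oligodendrocyte precursor and 2 of 6 striatal ones had positive LFCs. A negative LFC was found there for 1 of 5 hippocampal markers, and the part of these cell types was not tested. The interaction in the vHipp had 0 members at an unadjusted p under 0.05, against 2.84% of genes, and no gene at an adjusted one (0%).

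In the mPFC, Mmp16 stood out among ketamine-treated mice. Its levels were 30.2 to 46.3 CPM in CTRL ketamine mice, with a median of 37.7, and 17.4 to 35.7 CPM in CSDS ketamine mice, with a median of 30.3. All 9 CSDS libraries lay below the CTRL median, 4 lay below every CTRL library, and the groups overlapped for the other 5. The LFC was -0.35 (SE 0.105, p = 0.00196), which did not pass (adjusted p = 0.830, edgeR), and 5.8% of genes had an unadjusted p under 0.05 in this comparison. Mouse 1 had the lowest level, and without its library the LFC was -0.28 (p = 0.00567). In the same comparison 2 of 5 choroid plexus markers, 1 of 4 excitatory neuron markers and 1 of 6 striatal markers had negative LFCs at an unadjusted p under 0.05, no marker of the other lists did so in either direction, and none passed the adjusted test. Choroid plexus markers summed to 4.43 to 32.2 CPM in CTRL ketamine mice (median 8.52) and 4.28 to 11.0 CPM in CSDS ketamine mice (median 6.00). Excitatory neuron markers summed to 4977 to 6450 CPM (median 5507) and 4880 to 6155 CPM (median 5394). Oligodendrocyte markers had a median LFC of 0.44, with sums of 586 to 3408 CPM (median 1529) and 511 to 5922 CPM (median 2243). The part of these cell types in the Mmp16 value was not tested.

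In saline-treated mice the mPFC levels of Mmp16 were 25.0 to 41.0 CPM in CTRL mice and 27.8 to 46.6 CPM in CSDS mice, with medians of 33.5 and 34.4. The groups overlapped, with 1 CSDS library above every CTRL library and 1 CTRL library below every CSDS library, and the LFC was 0.06 (SE 0.101). The interaction, which is the stress difference in ketamine mice minus that in saline mice, was -0.40 (SE 0.146, p = 0.00820). It did not pass either (adjusted p = 0.898), with 5.31% of genes at an unadjusted p under 0.05. Without mouse 1 it was -0.34 (p = 0.0124), and over the 16 settings tried it lay between -0.52 and -0.31. Ketamine against saline in CSDS mice gave -0.24 (p = 0.0252, adjusted p = 0.993), and -0.18 (p = 0.0697) without mouse 1. These comparisons share the CSDS ketamine libraries, so their values are not separate evidence.

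No other member had an unadjusted p under 0.05 in any mPFC comparison. The background there was 2.94% of genes for stress in saline, 3.07% for ketamine averaged over stress groups, 3.64% for ketamine in CTRL mice and 4.32% for ketamine in CSDS mice. The next smallest was Hapln4 for ketamine in CSDS mice, with 99.9 to 147.7 CPM in saline mice and 111.7 to 155 CPM in ketamine mice. These ranges overlapped, and the LFC was 0.16 (SE 0.0899, p = 0.0755). Acan had the widest intervals, with an LFC of -0.33 for ketamine in CTRL mice and 0.38 for the interaction, and neither had an unadjusted p under 0.05.

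In the vHipp, ketamine gave an unadjusted p under 0.05 for 1 member. Averaged over stress groups, Ncan had 132.6 to 251 CPM in saline mice (median 200) and 158 to 440 CPM in ketamine mice (median 206). The medians were near each other, and 5 of 20 ketamine libraries lay above every saline library. The LFC was 0.18 (SE 0.0890, p = 0.0489), and 0.11 (p = 0.155) without mouse 11. In this comparison 3.39% of genes had an unadjusted p under 0.05. No member did for ketamine in CTRL mice (2.88% of genes) or in CSDS mice (2.9%). The ketamine difference of the mPFC less that of the vHipp had no member either, against 3.46% of genes. In all of these ketamine comparisons, of both regions, 0% of genes passed the adjusted test in edgeR, and DESeq2 called none.

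**Figure D4:**
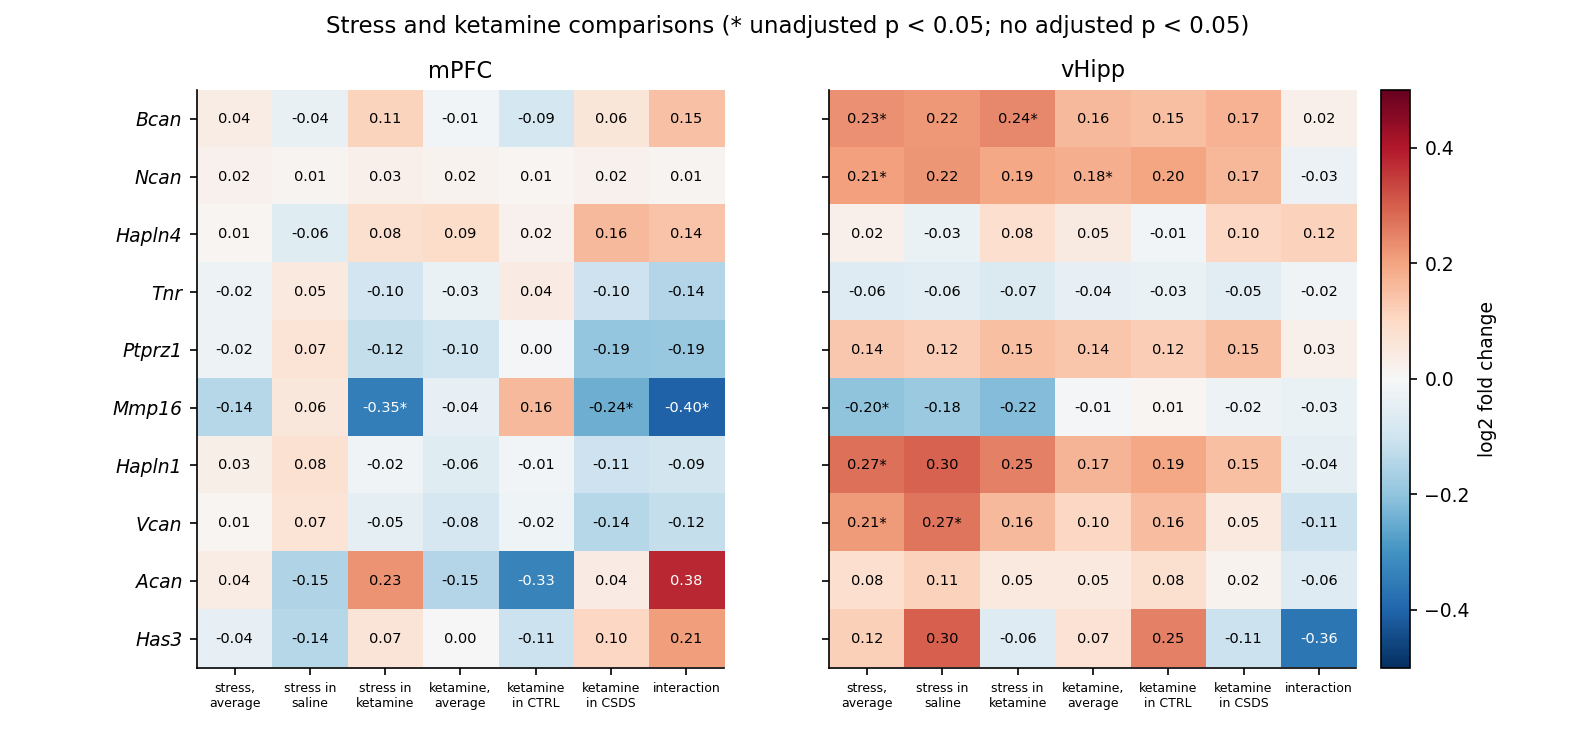
Log2 fold change of each gene in the 7 comparisons within a region (rows, genes in order of their mPFC level per length; red, higher in CSDS or ketamine; stars, unadjusted p under 0.05). The stars in the mPFC all fall on Mmp16, and none of the 140 values passed the adjusted test.

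Neighboring parts of the matrix system were described with a list of 69 other genes in 5 roles. Of 68 tested between regions, 20 were higher in the mPFC, 27 were higher in the vHipp and 21 did not pass, against 48.9% of all genes passing. Among structural genes, Sema3a, a guidance protein that binds chondroitin sulfate in nets, had an LFC of 2.86 (SE 0.128, median 12.5 CPM in the mPFC and 1.59 in the vHipp), Nptx2, a pentraxin of excitatory synapses, had 1.69, and Tnxb had -1.79. Of the proteases and their inhibitors, 4 were higher in the mPFC and 8 in the vHipp, with the largest LFCs for Adamts9 (-2.36), Timp4 (-1.07) and Adamts1 (-0.84).

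Of 17 genes listed for chondroitin sulfate chains, 4 were higher in the mPFC and 6 in the vHipp. Ust, a uronyl sulfotransferase, had a median of 12.1 CPM in the mPFC and 57.2 CPM in the vHipp, with ranges that did not overlap (9.55 to 17.1 and 44.0 to 79.5 CPM) and an LFC of -2.25. Chsy3, a chondroitin synthase, had an LFC of 1.37, and Chst7 had -0.73. Of 9 hyaluronan genes, 2 were higher in the mPFC and 3 in the vHipp, led by Hmmr (1.12), Cd44 (-0.69) and Hyal3 (-0.44). The medians of Cd44 were close, at 4.67 CPM in the mPFC (2.52 to 7.47) and 4.80 CPM in the vHipp (1.15 to 39.2). Hmmr and Hyal3 were low, with medians of 0.490 and 0.294 CPM in the mPFC and 0.230 and 0.397 CPM in the vHipp. Of 10 receptors and ligands, 4 were higher in each region. The largest were Otx2 (-1.90), a homeoprotein that nets take up and that the choroid plexus makes, Rtn4rl1 (-0.75), a receptor of the Nogo family, and Ptn (0.59), a ligand of the Ptprz1 receptor. Otx2 was near 0 in most libraries (medians of 0.153 and 0.325 CPM), while choroid plexus markers summed to 4.18 to 32.2 CPM in the mPFC and 13.8 to 698 CPM in the vHipp.

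Within a region none of the 67 other matrix genes tested passed in any comparison. For vHipp stress, 7 had positive LFCs and 5 had negative ones at an unadjusted p under 0.05, with 5 of the 7 among proteases and inhibitors, beside 5.31% of all genes with positive and 4.4% with negative LFCs. The smallest p-values belonged to Cemip2, a hyaluronidase of the cell surface (LFC -0.24, SE 0.0599, p = 0.000187, adjusted p = 0.323), and Adamts15, a protease that cleaves versican (LFC -0.39, p = 0.00121). For stress in the mPFC they belonged in edgeR to Has2 (LFC -0.49, p = 0.0213), which makes hyaluronan, and Arsb (0.06, p = 0.0411). The median of Has2 there was 0.382 CPM. For ketamine they belonged to Adamts8 (0.21, p = 0.0249) and Csgalnact1 (-0.07, p = 0.0288) in the mPFC and to Otx2 (-1.36, p = 0.0130) and Mmp9 (-0.19, p = 0.0616) in the vHipp. Choroid plexus markers moved with Otx2 in the vHipp ketamine comparison, with 4 of 5 at an unadjusted p under 0.05 and a median LFC of -2.21. They summed to 14.9 to 698 CPM in saline mice (median 23.6) and 13.8 to 27.3 CPM in ketamine mice (median 20.6). The 698 CPM came from CSDS saline mice, whose median was 24.4, while CTRL saline mice reached 30.4 CPM. The part of these markers in the Otx2 value was not tested.

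Across libraries the 10 genes fell into sets that varied together. These correlations are of log2(CPM + 1) deviations from the group mean, over 39 mPFC or 40 vHipp libraries, and the values of a pair share their library and its composition, so they are given as a description with no test. Vcan, Hapln1 and Ptprz1 formed a set in both regions. The correlation of Vcan with Ptprz1 was 0.80 in the mPFC (Spearman 0.82) and 0.78 in the vHipp (0.66), and that of Hapln1 with Ptprz1 was 0.78 and 0.79. Without mice 1 and 11 the vHipp values were 0.59 and 0.63. In the vHipp, Bcan and Ncan had 0.84 between them (0.83 without these mice). Ncan had 0.80 with Vcan, 0.67 with Hapln1 and 0.69 with Ptprz1 there, and 0.68, 0.47 and 0.50 without these mice. Bcan had 0.64 with Vcan, 0.52 with Hapln1 and 0.32 with Ptprz1, and 0.59, 0.37 and 0.12 without them. In the mPFC, Bcan and Ncan had 0.50, and Ncan and Vcan had 0.23.

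Tnr and Mmp16 formed another pair, with 0.61 in the mPFC and 0.72 in the vHipp. Hapln4 had -0.61 with its neighbor Ncan in the vHipp and 0.10 in the mPFC, and in the vHipp it had -0.48 with Bcan, -0.41 with Vcan and 0.06 with Acan. Without mice 1 and 11 these 4 vHipp values were -0.55, -0.39, -0.28 and -0.09. Has3 had no partner in both regions. Acan went with Vcan in the mPFC (0.64), and in the vHipp their correlation was -0.19 over all libraries (Spearman 0.04) and 0.15 without mice 1 and 11 (0.19).

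The sets moved with summed cell type markers. In the vHipp, Ncan had 0.89 with astrocyte markers, Vcan had 0.87 with oligodendrocyte precursor markers, and Bcan had 0.84 with microglia markers. Without mice 1 and 11 these were 0.83, 0.80 and 0.83. In the mPFC, Vcan had 0.84 with oligodendrocyte precursor markers and Ncan had 0.35 with astrocyte markers. Acan in the mPFC had -0.74 with excitatory neuron markers and 0.65 with oligodendrocyte markers, which ranged from 511 to 6082 CPM there. Its value with parvalbumin interneuron markers was 0.31 in the mPFC and 0.47 in the vHipp, and that of Hapln4 was 0.50 and 0.09.

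**Figure D5:**
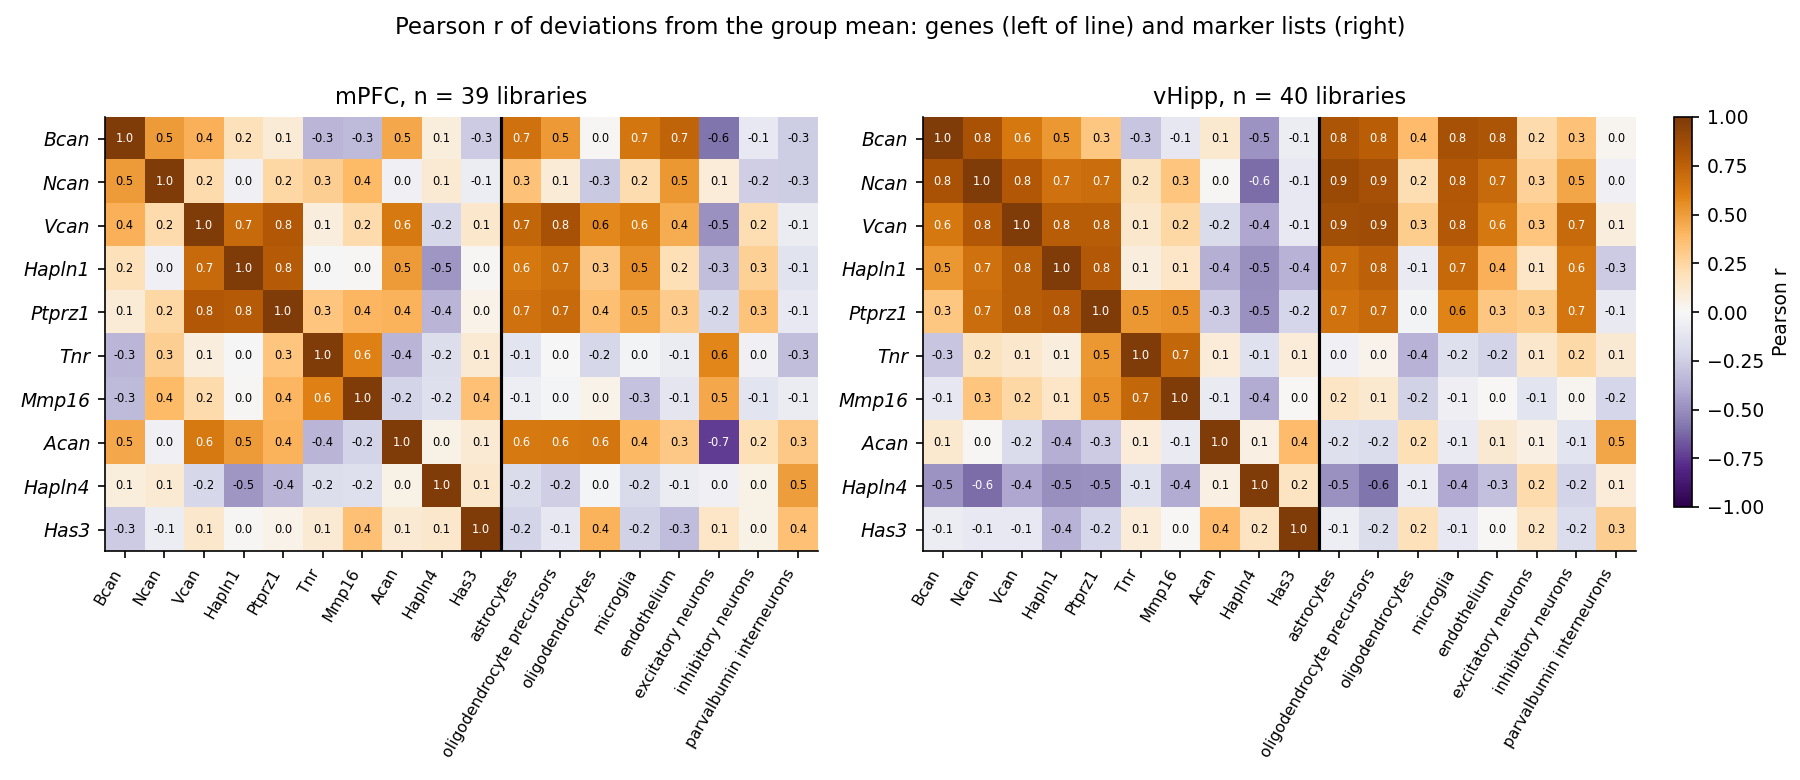
Pearson r between the 10 genes (left of the line) and with 8 summed marker lists (right), over mPFC and vHipp libraries, from deviations of the group means (orange, positive; purple, negative). Vcan, Hapln1 and Ptprz1 form a block in both regions, and in the vHipp Bcan and Ncan have 0.84 between them, while Bcan and Ptprz1 have 0.32.

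The genes most like each member over both regions, among 15184 genes with a mean of at least 1 CPM, were named by the mean of the 2 within-region correlations. They were Bmpr1a (0.91) and Prex2 (0.91) for Ptprz1, Myo6 (0.91) and Megf10 (0.85) for Vcan, and Fgfr3 (0.90) and Gnai2 (0.90) for Bcan. For Hapln1 they were Tmem47 (0.89) and Nadk2 (0.88), and for Ncan Shank1 (0.83) and Igdcc4 (0.80). Tnr was followed by Kctd16 (0.88) and Grin2b (0.88), and Mmp16 by Tnrc6b (0.84) and Tmem245 (0.83). Hapln4 went with Lynx1 (0.78), and Acan with Cacng5 (0.68) and Lingo3 (0.66). Has3 had the weakest likeness, with 0.51 for Wnt2 and 0.49 for Gm34583.

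Whether a mouse that was high in 1 region was high in the other was tested over the 39 mice with both, with mice permuted within groups (100000 resamples, two-sided) and adjustment over 15184 genes. Mmp16 had the closest link, with a Pearson r of 0.64 (adjusted p = 0.000608) and a Spearman rho of 0.60 (adjusted p = 0.00163). Tnr had 0.50 (adjusted p = 0.0153; rho 0.53, adjusted p = 0.00783) and Hapln1 had 0.47 (adjusted p = 0.0136; rho 0.44, adjusted p = 0.0269) in the same permutation test. Ptprz1 had 0.45 (adjusted p = 0.0320) with a rho of 0.31 that did not pass (adjusted p = 0.141, permutation). Without the 2 mice farthest from the median in the mPFC these values of r were 0.53, 0.39, 0.43 and 0.39, in this order. The other 6 members lay between -0.12 (Acan) and 0.26 (Ncan) and did not pass. Over all genes the median r was 0.29 and 34.9% passed, so 4 of 10 members is near the share of all genes.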

How the data were processed

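RNA of mPFC and vHipp punches was sequenced as stranded mRNA libraries, and the authors deposited raw counts per gene. The submitters' processing notes name bcl2fastq 2.20.0.422, CASAVA and the build GRCm38, and the aligner and counter are not given in the sources used here. Genes with more than 10 counts in total and detected in more than 3 libraries were kept. CPM used TMM factors, and edgeR 4.0.16 (R 4.3.3) gave quasi-likelihood F tests with Benjamini-Hochberg adjustment, per region over 4 groups and over all 79 libraries for region contrasts. Correlations used log2(CPM + 1) of 15184 genes with a mean of at least 1 CPM. Scripts were tested on simulated data. Alternatives were DESeq2 1.42.0, limma 3.58.1, other scalings, filters and libraries left out. Mouse numbers pair the regions because both come from the same animal (36 of 39 correlations of deviations over 0.1). Named genes were the 10 members, up to 3 passing genes per role of the other matrix genes or the 2 with the smallest p, and the 2 genes most like each member, of which 1 is not reported here. Members and lists were chosen with earlier results of these data known. Exon lengths came with the deposited counts, gene symbols from GENCODE release M21, and windows before gene starts from RefSeq.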

Additional observations from a re-analysis of the deposited data

Results flagged for a closer look

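In 6 of the 80 sets of a gene in a group and region, the highest library stood apart by Dixon's criterion, and chance gives about 1 in 20. In CSDS saline mPFC, Acan reached 16.4 CPM in mouse 2, with the next library at 8.14, and Ptprz1 reached 352 CPM in mouse 7, with the next at 259. In CTRL ketamine vHipp, Hapln1 reached 48.8 CPM in mouse 32, with the next at 33.3. The other 3 were all the vHipp library of mouse 11 (CSDS ketamine), with 48.5 CPM of Vcan, 90.8 CPM of Hapln1 and 641 CPM of Ptprz1, against next values of 29.1, 35.0 and 318. The astrocyte markers of that library summed to 11847.6 CPM, with the next library at 6749, and its part in these levels was not tested.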

How the results depend on the processing

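No member that passed changed its direction in any alternative run. Of 2970 values of the members' effects under alternatives, 2760 kept their direction and side of the threshold, 204 changed sign without having passed, and 6 no longer passed, all of them Acan between regions. The number of genes that differed between regions was 14474 with DESeq2, 12481 with a stricter count filter, and 14556 to 15125 when a run of 4 mice was left out. With the mouse as a block it was 15437, and the block ended the call of Acan (LFC 0.22) and of no other member. Within regions no gene passed in any alternative except DESeq2, which called 14 genes for stress in the vHipp, and the cause was not tested. Without the vHipp library of mouse 11, a setting chosen after the data were seen, 2 members had an unadjusted p under 0.05 for stress in the vHipp, against 8.53% of all genes. Has3 and Acan had the lowest levels of the members, and the effect of depth was not compared between genes. The arena, which can carry differences between mice, is not in the labels.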
